A study of Vitis vinifera with 204 samples.

Results

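The 8 genes described here encode 3 MYBA transcription factors, 2 further MYB factors, 2 basic helix-loop-helix (bHLH) proteins and 1 WD-repeat protein that act on berry colour in grapevine. They were chosen by identifier from the 29971 IDs of the deposited expression table. MYBA1 is VIT_02s0033g00410, MYBA2 is VIT_02s0033g00390 and MYBA3 is VIT_02s0033g00450. MYB5a is VIT_08s0007g07230 and MYB5b is VIT_06s0004g00570. The bHLH genes MYC1 and MYCA1 are VIT_07s0104g00090 and VIT_15s0046g02560, and the WD-repeat gene WDR1 is VIT_16s0098g00870. The table pairs no ID with a name, so the names are those in use for these IDs in the grapevine field. The symbols of 3 of them (MYC1, MYCA1 and WDR1) also stand in the RefSeq gene table of assembly ASM3070453v1, on the chromosome whose number each ID carries.

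Anthocyanins, the red and blue pigments of dark grapes, build up in the skin from veraison on, the point at which berries soften, colour and begin to load sugar. Pigment genes are switched on by a complex in which a MYB factor binds DNA together with a bHLH protein, held by a WD-repeat protein. The MYB decides largely which genes respond: MYBA1 and MYBA2 drive the glucosyltransferase that stabilises anthocyanins and lie at the locus whose loss makes white cultivars, while MYB5a and MYB5b act on the general flavonoid pathway, tannins included.

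The libraries hold RNA of berry pericarp from the cultivar Cabernet Sauvignon (clone FPS 8 on 5C rootstock), with seeds removed, from a vineyard in Modesto, California, in the seasons 2012, 2013 and 2014. Vines carried 1 of 2 intensities of cluster thinning, removal of 75% or of 50% of the clusters, so every library comes from a thinned vine; unthinned vines are not analysed here. Each of the 34 time points (12 in 2012, 10 in 2013 and 12 in 2014) has 3 libraries at 75% and 3 at 50%, 204 in all, each from 60 berries of 6 clusters. Days are counted from veraison and run between -28 and 80 in 2012, -20 and 43 in 2013, and -14 and 63 in 2014. Green berries were taken as the days before 0 (48 libraries), early ripening as days 8 to 22 (48 libraries) and ripe berries as the last 2 time points of a season (36 libraries).

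Expression is given as RPKM, read numbers scaled to transcript length and library size, so levels of different genes can be set side by side per length. Libraries summed to between 817623 and 1105136 RPKM, and their depth in reads is unknown. Of the RPKM values, 83 libraries hold what is called here a second form: at least 20 of 9114 steadily expressed genes are listed under 0.5 RPKM, where the other 121 libraries have at most 14 such genes. All 72 libraries of 2014 and 11 of the 60 of 2013 are of the second form, and none of 2012. The season 2014 and the second form therefore cannot be told apart. The 3 MYBA genes lie close together in ID order and are closely similar copies, so how reads were split between them is uncertain. Each library is a pool of berries, in which fewer coloured berries and less RNA per berry cannot be told apart. No named pericarp, skin or seed marker could be checked, since other IDs carry no names here.

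The 3 MYBA genes were nearly silent in green berries and were strongly expressed at early ripening, with MYBA2 and MYBA3 the members of highest median level. MYB5a and MYCA1 ran the other way, and MYB5b, MYC1 and WDR1 differed by less than 2-fold. A gene was called when limma on log2(RPKM + 1) gave a Benjamini-Hochberg adjusted p under 0.05 over all 20770 genes tested and at least a 2-fold difference. All 8 members passed the filter on low values. Between early ripening and green berries 3 of the 8 rose and 2 fell, where 4.55% of all genes rose and 17.9% fell. The median log2 difference of all genes was -0.24.

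MYBA1 had a lowest, median and highest value of 17.7, 35.3 and 76.1 RPKM at early ripening, and 0, 0.0514 and 37.9 RPKM in green berries. MYBA2 had 59.8, 103.8 and 133.8 RPKM at early ripening, and 0, 0.0297 and 56.0 RPKM in green berries. MYBA3 had 25.6, 67.96 and 119.5 RPKM at early ripening, and 0, 0.43 and 55.8 RPKM in green berries. The ranges of MYBA2 were apart, while those of MYBA1 and MYBA3 overlapped through green libraries sampled within 9 days of veraison. MYBA1 rose by 4.22 on the log2 scale (SE 0.11, limma adjusted p = 5.85e-73), MYBA2 by 5.48 (SE 0.13, limma adjusted p = 5.84e-82) and MYBA3 by 4.56 (SE 0.12, limma adjusted p = 1.92e-74). These are differences of mean log2(RPKM + 1), which understate a change that starts near 0. MYBA1 was listed at 0 in 13 libraries, MYBA2 in 18 and MYBA3 in 6, all of them before day 0.

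**Figure D1:**
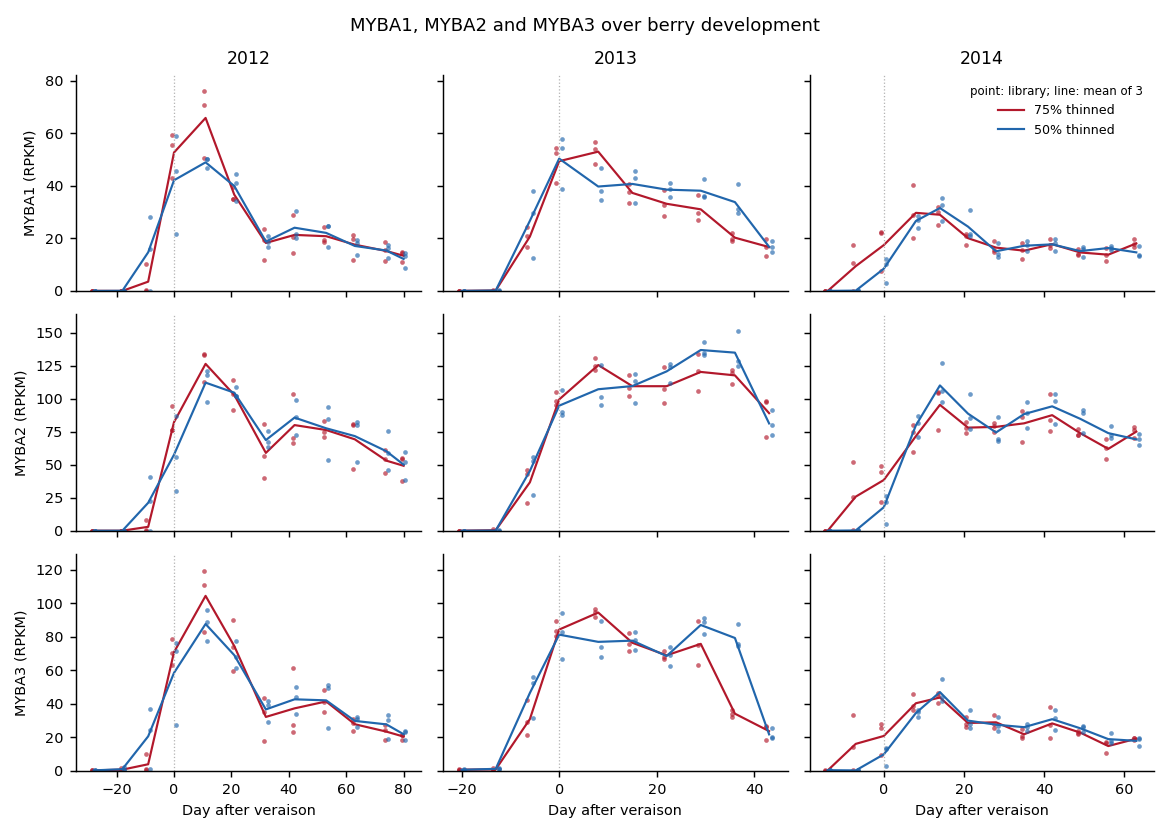
RPKM of MYBA1, MYBA2 and MYBA3 in every library against days from veraison, with 1 panel for each gene and season, 75% and 50% thinned vines in different colours, and lines through the means of 3 libraries. Values lie near 0 until shortly before day 0, reach their highest means between day 0 and day 29, and decline towards harvest.

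MYB5a, a MYB of young berries, fell without overlap. Its lowest, median and highest values were 4.54, 9.45 and 17.4 RPKM at early ripening and 29.0, 34.9 and 54.6 RPKM in green berries. The log2 difference was -1.83 (SE 0.03, limma adjusted p = 8.06e-93). MYB5b, a related MYB, had 31.0, 37.1 and 44.7 RPKM at early ripening and 21.6, 29.5 and 40.0 RPKM in green berries. These ranges overlapped, and the difference of 0.31 (SE 0.02, limma adjusted p = 9.89e-28) passed the test but not the 2-fold mark.

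Of the bHLH partners, MYCA1 fell by 1.89 on the log2 scale (SE 0.04, limma adjusted p = 2.28e-93). It had 4.10, 6.26 and 8.43 RPKM (lowest, median and highest) at early ripening and 9.78, 27.4 and 54.9 RPKM in green berries, so no library of early ripening reached the green range. MYC1, a bHLH that acts with both MYB5 and MYBA proteins, had 6.53, 11.2 and 23.4 RPKM at early ripening and 15.4, 24.6 and 38.5 RPKM in green berries, with some overlap. Its difference of -0.97 (SE 0.04, limma adjusted p = 2e-53) lay just under 2-fold. It lay past that mark without season 2012 (-1.18), without day -6 of 2013 (-1.05), without replicate 1 (-1.0) and with a pseudocount of 0.1 RPKM (-1.02). The settings named are only those past the mark. With another replicate left out it lay as near 0 as -0.92. By season it was -0.56 in 2012, -1.40 in 2013 and -0.95 in 2014.

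WDR1, the scaffold of the complex, had 18.1, 30.2 and 40.6 RPKM at early ripening and 21.1, 30.9 and 45.3 RPKM in green berries. The ranges nearly coincided, and the difference of -0.07 (SE 0.04, limma adjusted p = 0.0539) did not pass. Its sign depended on the scaling: it was 0.17 with median ratio scaling and 0.19 after quantile normalization.

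**Figure D2:**
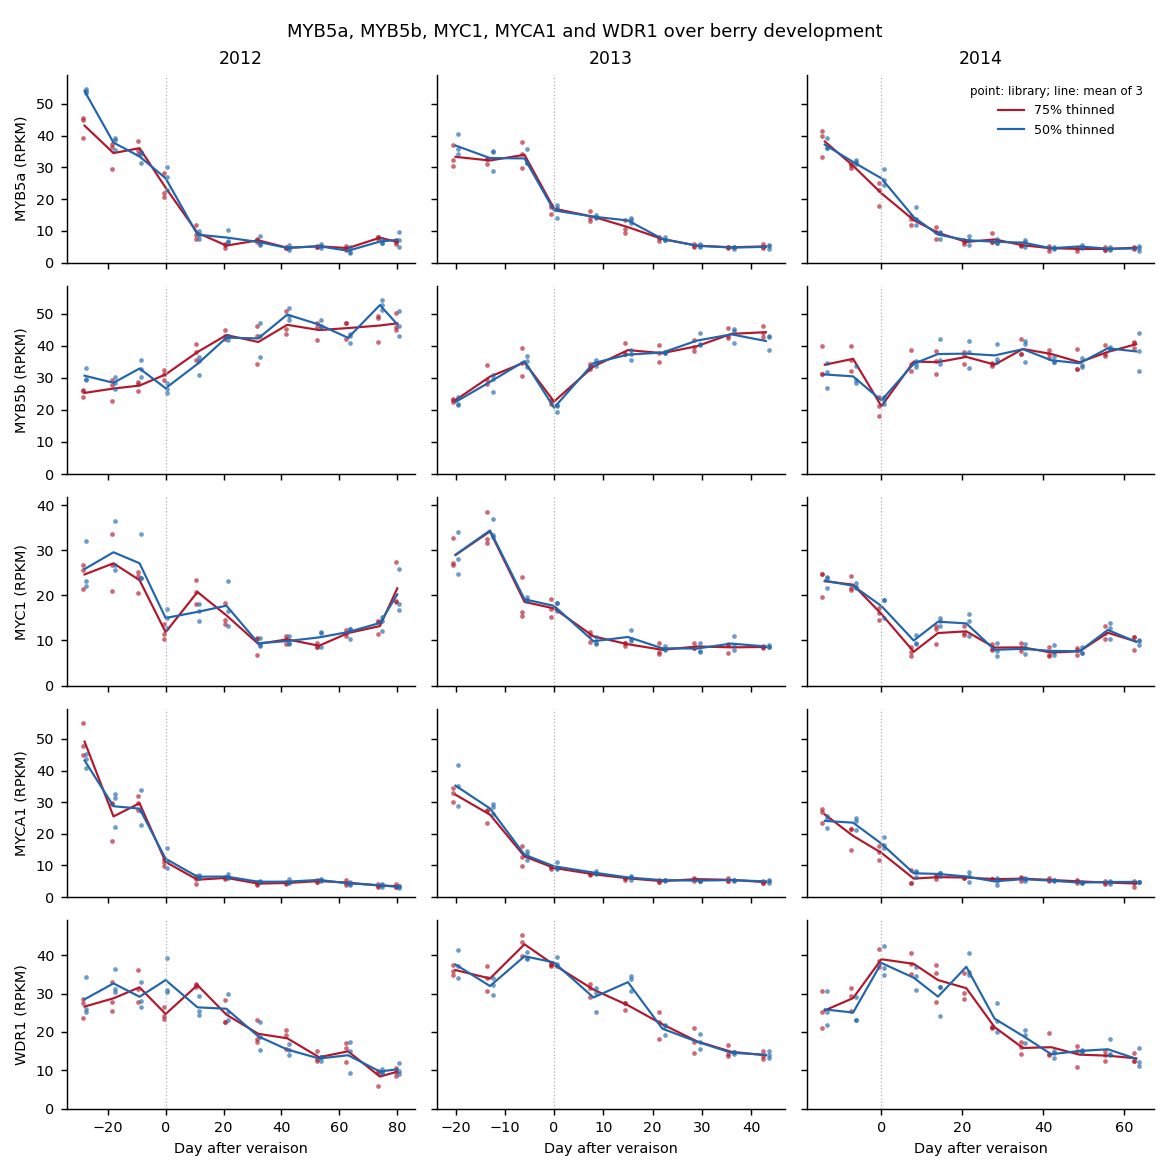
RPKM of MYB5a, MYB5b, MYC1, MYCA1 and WDR1 in every library against days from veraison, 1 panel for each gene and season, with the thinning intensities in different colours and lines through the means of 3 libraries. MYB5a and MYCA1 are highest before day 0 in each season, MYB5b is at its lowest on day 0 in 2013 and 2014, and WDR1 declines after early ripening.

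The order of levels per length turned over between the stages. In green berries the medians of 5 members lay between 24.6 RPKM (MYC1) and 34.9 RPKM (MYB5a), and MYBA3, MYBA1 and MYBA2 followed below 1 RPKM. Neighbours among the first 5 did not separate: MYB5a was above WDR1 in 29 of 48 libraries, WDR1 above MYB5b in 26 and MYB5b above MYCA1 in 27. At early ripening MYBA2 came first with a median of 103.8 RPKM and was above MYBA3 in all 48 libraries. MYB5b (37.1 RPKM), MYBA1 (35.3 RPKM) and WDR1 (30.2 RPKM) were close together there, with MYBA1 above WDR1 in 33 of 48 libraries. In ripe berries the medians ran from MYBA2 (70.5 RPKM) through MYB5b (42.9 RPKM), MYBA3 (20.7 RPKM), MYBA1 (16.4 RPKM), WDR1 (13.1 RPKM), MYC1 (10.7 RPKM) and MYB5a (4.98 RPKM) to MYCA1 (4.57 RPKM). MYB5a was above MYCA1 in 20 of these 36 libraries, so that pair did not separate.

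The rise of the 3 MYBA genes spanned 2 or 3 sampling intervals, and its place relative to day 0 differed between seasons. In 2012 MYBA1 lay between 21.6 and 59.4 RPKM on day 0, against 0.00897 to 28.3 RPKM on day -9 and at most 0.14 RPKM on day -18. In 2013 it lay between 12.6 and 37.9 RPKM on day -6, against 0.00873 to 0.45 RPKM on day -13. In 2014 it lay between 20.1 and 40.5 RPKM on day 8, against 3.11 to 22.5 RPKM on day 0 and 0.0608 to 17.6 RPKM on day -7. The MYBA1 ranges of the last day and the day before it were apart only in 2013.

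In the interval of each season that held the most called genes, 4 of the 8 members were called, MYBA1, MYBA2 and MYBA3 upwards and MYCA1 downwards. Between day 0 and day -9 of 2012 the log2 differences were 3.37, 3.73 and 3.39 for MYBA1, MYBA2 and MYBA3, and -1.25 for MYCA1. There 3.19% of all genes rose and 10.7% fell. Between day -6 and day -13 of 2013 they were 4.33, 5.02 and 4.38, and -1.0 for MYCA1, with 3.09% of all genes higher and 8.83% lower. Between day 8 and day 0 of 2014 they were 1.26, 1.65 and 1.52, and -1.12 for MYCA1, with 1.5% of all genes higher and 7.96% lower. In 2014 the MYBA genes had already risen by 2.17, 2.68 and 2.13 between day 0 and day -7. Without replicate 2 of each cell, MYBA1 (0.92) and MYCA1 (-0.92) fell short of 2-fold in 2014, which left 2 of 8. MYCA1 lay near the 2-fold mark and fell short of it with median ratio scaling (-0.92 in 2013 and -0.88 in 2014) and after quantile normalization (-0.91 and -0.80).

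Over all 31 intervals between neighbouring time points, 28 of 248 member intervals were called, where 3.15% of all gene intervals were. MYBA1, MYBA2 and MYBA3 rose in 7 each. MYCA1 fell in 3 and MYB5a in 1, day 11 against day 0 of 2012 (-1.37). MYB5b, MYC1 and WDR1 passed 2-fold in none, so their courses were made of smaller steps. The 3 falls of MYBA genes were those of MYBA1 (-1.03) and MYBA3 (-1.09) between day 32 and day 21 of 2012, and of MYBA3 (-1.18) between day 43 and day 36 of 2013. In the last of these the second-form libraries are all 6 of day 43 and 3 of the 6 of day 36, and their part in the difference was not tested.

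**Figure D3:**
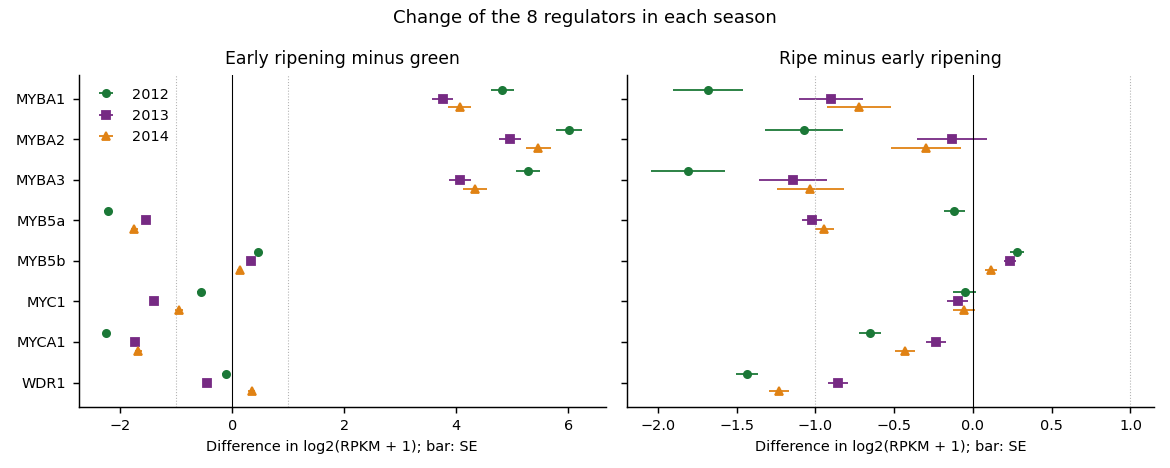
Differences in log2(RPKM + 1) of the 8 members, with bars for the limma SE, for early ripening minus green berries (left) and ripe berries minus early ripening (right), 1 symbol for each season; dotted lines mark 2-fold. MYBA1, MYBA2 and MYBA3 lie far above 0 at the onset in each season, MYB5a and MYCA1 below -1, and there WDR1 is the member with seasons on both sides of 0.

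In late ripening the MYBA genes declined unequally and WDR1 fell. Between ripe berries and early ripening 0 of the 8 rose and 3 fell, where 5.74% of all genes rose and 8.22% fell. WDR1 had 5.97, 13.1 and 18.05 RPKM in ripe berries (lowest, median and highest), against 18.1, 30.2 and 40.6 RPKM at early ripening. The ranges just failed to overlap, and the log2 difference was -1.17 (SE 0.04, limma adjusted p = 3.08e-63). WDR1 was lower in each season, with differences of -1.44 in 2012, -0.86 in 2013 and -1.23 in 2014.

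MYBA1 had 8.60, 16.4 and 40.7 RPKM in ripe berries, against 17.7, 35.3 and 76.1 RPKM at early ripening, with overlap. It fell by 1.1 on the log2 scale (SE 0.12, limma adjusted p = 2.05e-15). Without season 2012 its difference was -0.81, under 2-fold. MYBA3 had 10.6, 20.7 and 87.4 RPKM in ripe berries, against 25.6, 67.96 and 119.5 RPKM at early ripening, and fell by 1.33 (SE 0.13, limma adjusted p = 1.1e-18). The season values of MYBA3 were -1.81 in 2012, -1.14 in 2013 and -1.03 in 2014. Within 2012 all libraries are of the first form and within 2014 all of the second, whereas in 2013 early ripening is of the first form and 9 of 12 ripe libraries are of the second. On day 36 of 2013 MYBA3 averaged 34.01 ± 1.87 RPKM in the second-form libraries of 75% vines and 79.3 ± 7.04 RPKM in the first-form libraries of 50% vines (SD, n = 3 each), against 77.2 ± 10.2 RPKM at early ripening of 2013 (SD, n = 18). The first-form ripe libraries, at 74.6 to 87.4 RPKM, lie within that season's early range of 62.5 to 96.6 RPKM. MYBA1 had 29.82 to 40.7 RPKM in those first-form libraries and 19.07 to 21.95 RPKM in the second-form ones. Its early range of 2013 was 28.45 to 56.65 RPKM, and its difference in that season was -0.90. The part of the form in the falls of MYBA1 and MYBA3 in 2013 was not tested.

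MYBA2 kept the highest level of the family, with 37.8, 70.5 and 151.2 RPKM in ripe berries against 59.8, 103.8 and 133.8 RPKM at early ripening. Its difference of -0.50 (SE 0.13, limma adjusted p = 0.000357) was under 2-fold, and it reached that mark only in 2012 (-1.07), with -0.13 in 2013 and -0.30 in 2014. Averaged over the seasons, MYB5a (-0.69) and MYCA1 (-0.44) were lower by less than 2-fold, and MYB5b was 0.21 higher (SE 0.02, limma adjusted p = 7.44e-15). MYB5a differed by -0.12 in 2012 (limma adjusted p = 0.104), by -1.02 in 2013, past 2-fold, and by -0.94 in 2014. In 2012 its mean was 4.16 ± 0.81 RPKM on day 63 and 7.23 ± 0.90 RPKM on day 74 (SD, n = 6 each). MYC1 differed by -0.07 (limma adjusted p = 0.11), yet it was not flat within 2012. Its mean there was 9.32 ± 1.46 RPKM on day 32, 13.5 ± 1.52 RPKM on day 74 and 20.9 ± 4.51 RPKM on day 80 (SD, n = 6 each).

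The balance of RPKM within the MYBA family lay more towards MYBA2 in ripe berries than at early ripening, with the split of reads between these similar copies uncertain. The question was taken up after the values were seen. The ratio of MYBA1 to MYBA2 had a median of 0.268 in ripe berries of 2012 (range 0.224 to 0.303), against 0.411 at early ripening (0.335 to 0.569). In 2013 it was 0.203 (0.166 to 0.269), against 0.348 (0.289 to 0.434), and in 2014 it was 0.221 (0.198 to 0.279), against 0.293 (0.227 to 0.54). The ranges were apart in 2012 and 2013 and overlapped in 2014. The ratio of MYBA3 to MYBA2 had a median of 0.445 in ripe berries of 2012 (0.386 to 0.518), against 0.737 at early ripening (0.601 to 0.893). In 2014 it was 0.25 (0.196 to 0.294), against 0.428 (0.299 to 0.604), also apart. In 2013 it was 0.281 (0.241 to 0.597), against 0.696 (0.505 to 0.776), and the ranges overlapped. That season's early libraries are all of the first form, while 9 of its 12 ripe libraries are of the second. Its 3 first-form ripe libraries, at 0.578 to 0.597, lie within the early range, so the MYBA3 difference of 2013 and its p cannot be told apart from the form. Each of these 6 differences gave p = 2e-05 in a two-sided permutation test with 100000 resamples over the 12 ripe and 12 to 18 early libraries. That is the smallest value these permutations can give, and the value adjusted over the 6 tests is the same. The test pooled libraries of different days and thinning intensities as if exchangeable, although the ratios moved from day to day within a window. Its p is therefore not a measure of the spread between replicates alone.

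The ratio was higher at veraison than in the weeks after it. In 2012 the median of MYBA1 to MYBA2 was 0.703 on day 0 and 0.466 on day 11, and by day 21 it was 0.367. In 2013 it was 0.516 on day 0, 0.4 on day 8 and 0.307 on day 22, and in 2014 it was 0.478 on day 0, 0.337 on day 8, and 0.272 by day 21. Each season thus had its highest of these values at veraison. The fall did not run steadily to harvest. In 2014 the median of MYBA1 to MYBA2 was 0.187 on day 49 and 0.224 on day 63. In 2012 it was 0.247 on day 63 and 0.265 on day 80. The form of the values moves with both ratios. On day 36 of 2013 the ratio of MYBA3 to MYBA2 was 0.282 to 0.295 in the 3 second-form libraries, which are the 75% vines, and 0.578 to 0.597 in the 3 first-form libraries of the 50% vines. The ratio of MYBA1 to MYBA2 was 0.166 to 0.18 in those 75% libraries and 0.239 to 0.269 in those 50% libraries, both below the early range of 2013.

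**Figure D4:**
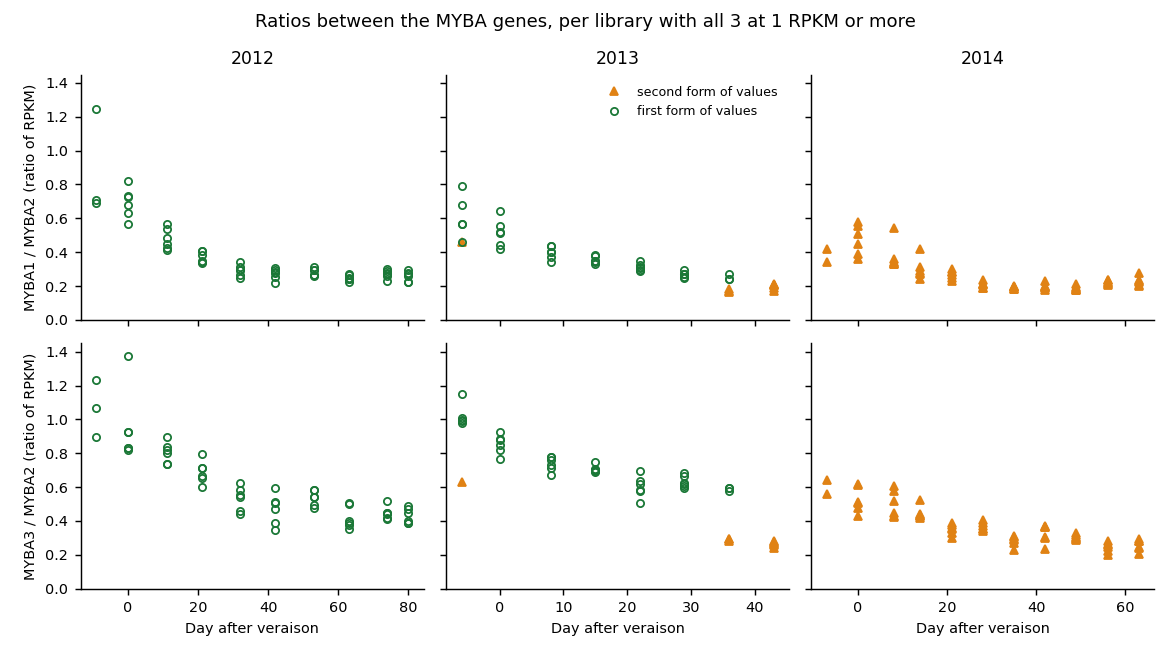
Ratio of MYBA1 to MYBA2 and of MYBA3 to MYBA2 in each library with all 3 genes at 1 RPKM or more, against days from veraison, by season, with the form of the RPKM values marked. The ratios are higher around day 0 than at harvest in each season, and on day 36 of 2013 the second-form libraries lie below the first-form ones.

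The size of the onset difference depended on the season in all 8 members, and so did that of most genes. The moderated F test called 8 of 8, where 75.8% of all genes were called. Without replicate 1, MYBA1 (limma adjusted p = 0.0579) and MYBA2 (limma adjusted p = 0.0514) were not called. MYBA1 differed by 4.83 in 2012, 3.76 in 2013 and 4.07 in 2014 (limma adjusted p = 0.00107 for the season dependence). In 2013 the green libraries of day -6 already expressed the MYBA genes. MYC1 differed by -0.56 in 2012, -1.40 in 2013 and -0.95 in 2014 (limma adjusted p = 4.52e-14). WDR1 differed by -0.11 in 2012, -0.45 in 2013 and 0.35 in 2014 (limma adjusted p = 1.54e-14), so its direction was not shared between seasons.

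Between seasons, MYBA3 at early ripening was the member called at 2-fold in these windows. In 2014 its mean log2 level was 1.15 below that of 2012 (SE 0.21, limma adjusted p = 2.87e-06), a comparison in which 2.72% of all genes were called. It was 1.05 below that of 2013 (SE 0.19, limma adjusted p = 1.22e-06), where 2.37% were called. With the form of the values as a covariate the MYBA3 differences were -0.93 (limma adjusted p = 0.323) and -0.83 (limma adjusted p = 0.392), and neither was called. Form varied within a season, day and thinning only through replicate 2 at 75% on days -20 and -6 of 2013. The form term thus rests on green libraries, and this fit cannot separate the form from season 2014. The difference from 2013 also fell under 2-fold with median ratio scaling (-0.93), after quantile normalization (-0.99) and with sugar as a covariate (-0.85). Between 2013 and 2012, all of the first form, 0 of 8 members and 1.89% of all genes were called. The member with the most negative difference there was MYC1 (-0.82, SE 0.07, limma adjusted p = 2.98e-21). In ripe berries limma called 0 of 8 in each pair of seasons, with 6.83% of all genes called between 2013 and 2012, 4.21% between 2014 and 2012, and 0.953% between 2014 and 2013. The ripe windows are not matched in days, being days 74 and 80 in 2012, 36 and 43 in 2013, and 56 and 63 in 2014. The 2-fold mark set the count of 0, since MYBA2 (0.97, limma adjusted p = 0.000302) and MYC1 (-0.86, limma adjusted p = 1.19e-20) between 2013 and 2012 lay under it at low p. MYBA2 averaged 85.1 ± 12.4 RPKM on day 43 of 2013 and 82.8 ± 15.9 RPKM on day 42 of 2012 (SD, n = 6 each), a gap within the spread. That day of 2013 is all of the second form. On earlier days of 2013 MYBA2 was higher, at 128.5 ± 13.2 RPKM on day 29 and 126.2 ± 13.6 RPKM on day 36. Day 32 of 2012 had 63.8 ± 14.7 RPKM (SD, n = 6 each). Days 29 of 2013 and 32 of 2012 are both of the first form.

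Averaged over a season, the thinning intensities did not differ detectably in any member. Called here means an adjusted p under 0.05 with no fold mark. The mean of the 3 seasons called 0 of 8 by limma, where 0.809% of all genes were called. At an unadjusted p under 0.05 there were 2 of 8 (MYC1 and MYCA1), against 17.1% of all genes. MYBA1 differed between 75% and 50% by 0.01 on the log2 scale (95% interval -0.15 to 0.18), MYBA2 by 0.04 (-0.14 to 0.23) and MYBA3 by -0.03 (-0.21 to 0.15). MYC1 (-0.06, limma adjusted p = 0.219) and MYCA1 (-0.06, limma adjusted p = 0.199) did not pass. MYC1 was higher at 75% in 9 of 34 time points and MYCA1 in 11, and the other members in 14 to 18.

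Within single seasons 0 of 8 members were called by limma, with 0.00481% of all genes called in 2012, 0.948% in 2013 and 0.0193% in 2014. None of the 8 had an unadjusted p under 0.05 in a single season. The F test for a difference of the thinning effect between seasons called 0 of 8 members and 0 of all genes, 0% of those tested, while 1029 genes had an unadjusted p under 0.05.

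Thinning differences of the MYBA genes were called at 1 time point of 2014 and 1 of 2012 at which the genes were coming on, in opposite directions. In 2013 the genes came on by day -6, and there the differences between 75% and 50% were -0.24 for MYBA1, -0.31 for MYBA2 and -0.59 for MYBA3, none of them called (limma adjusted p = 1). On day -7 of 2014 MYBA1 had 17.6, 0.13 and 10.6 RPKM in the 75% libraries, against 0.227, 0.0608 and 0.0726 RPKM in the 50% libraries. Two-sided exact permutation gave p = 0.2, where 3 against 3 cannot go below 0.1. Replicates 1 and 3 at 75% were on, while replicate 2 at 75% and all 3 at 50% were off, so the groups overlapped. MYBA2 showed the same split, with 51.9, 0.223 and 25.4 RPKM at 75% and 0.372, 0.186 and 0.0743 RPKM at 50%. In MYBA3, with 33.4, 0.23 and 14.2 RPKM at 75% and 0.0818, 0 and 0.131 RPKM at 50%, the groups did not overlap (exact permutation p = 0.1). Sugar in these libraries was 0.75, 0.68 and 0.98 g per 100 ml at 75%, and 0.6, 0.56 and 0.67 g per 100 ml at 50%. The on libraries held more sugar than any of the off libraries.

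On day -9 of 2012 the split went the other way. MYBA1 had 0.164, 10.2 and 0.206 RPKM at 75%, against 0.00897, 15.8 and 28.3 RPKM at 50% (exact permutation p = 0.4). There 1 of 3 libraries at 75% and 2 of 3 at 50% were on. Sugar was 1.37, 0.94 and 0.87 g per 100 ml at 75%, and 0.75, 1.78 and 1.72 g per 100 ml at 50%. At 50% the on libraries held the more sugar, whereas at 75% the on library had less than 1 of the off libraries.

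On day 0 of 2014 all libraries were on. MYBA1 had 22.5, 7.74 and 22.2 RPKM at 75%, against 12.1, 3.11 and 10.2 RPKM at 50%, with overlap. Sugar was 3.67, 2.65 and 4.65 g per 100 ml at 75%, and 2.8, 1.2 and 3.28 g per 100 ml at 50%. MYBA1 was highest in replicates 1 and 3 at 75%, which held the most sugar. It was lowest in replicate 2 at 50%, which held the least. With the sugar content of each library as a covariate, the differences over days -7 and 0 together were 1.70 for MYBA1, 2.24 for MYBA2 and 2.02 for MYBA3. That covariate is a common linear slope over all libraries. It cannot follow genes that come on over a narrow range of sugar, so these values do not separate thinning from sugar.

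**Figure D5:**
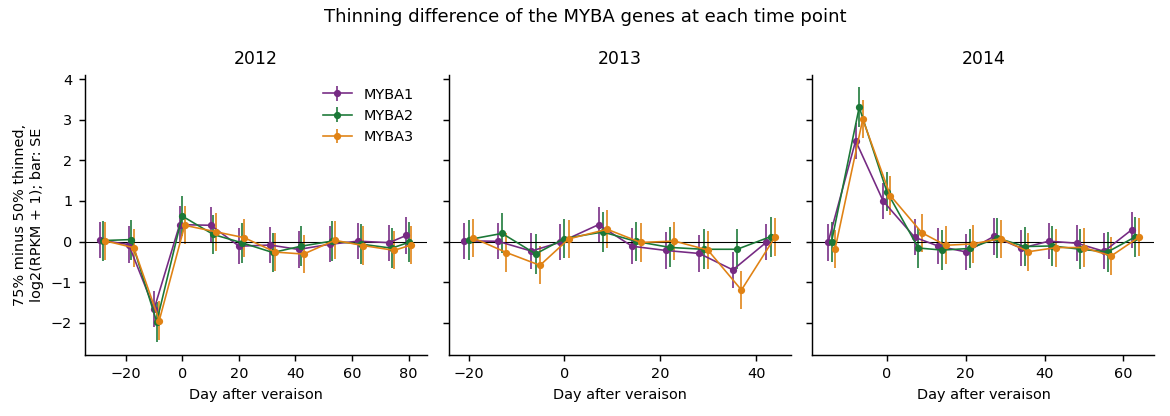
Difference in log2(RPKM + 1) of MYBA1, MYBA2 and MYBA3 between 75% and 50% thinned vines at each of the 34 time points, against days from veraison, 1 panel for each season, with bars for the limma SE. All 3 lie below 0 on day -9 of 2012 and above 0 on day -7 of 2014; MYBA3 also dips on day 36 of 2013, where the 75% libraries are of the second form and the 50% libraries of the first.

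In the limma fit, which pools the spread over all 68 cells of season, day and thinning, 6 of 272 member time points were called for thinning, where 1.16% of all gene time points were. All 6 were MYBA genes. On day -7 of 2014 they were higher at 75%, MYBA1 by 2.48 (limma adjusted p = 3.85e-05), MYBA2 by 3.31 (limma adjusted p = 5.4e-07) and MYBA3 by 3.01 (limma adjusted p = 1.74e-06). On day -9 of 2012 they were lower at 75%, with differences of -1.66 for MYBA1 (limma adjusted p = 0.0451), -1.98 for MYBA2 (limma adjusted p = 0.0209) and -1.95 for MYBA3 (limma adjusted p = 0.0155). The SD between the log2 values of MYBA1 was 2.16 at 75% and 0.12 at 50% on day -7 of 2014, and 1.87 at 75% and 2.61 at 50% on day -9 of 2012. The SE of the MYBA1 difference in the fit, pooled over all cells, was 0.45 at each time point.

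Over days -7 and 0 of 2014 together 4 of 8 members were called, where 4.72% of all genes were higher and 10.3% lower at 75%. This pair of days was chosen with earlier results of these data known. MYBA1 was higher by 1.74 (SE 0.32, limma adjusted p = 1.79e-05), MYBA2 by 2.27 (SE 0.35, limma adjusted p = 3.11e-07) and MYBA3 by 2.07 (SE 0.33, limma adjusted p = 1.07e-06). These SE are again pooled over all cells. For each day alone, exact permutation of the 3 MYBA genes gave p = 0.1 to 0.2 on day -7 and p = 0.3 on day 0. By limma none of these 3 was called on day 0 alone (limma adjusted p = 0.0935 to 0.148). Over both days MYCA1 was lower, with a difference of -0.27 (SE 0.10, limma adjusted p = 0.0418). Without replicate 3 the calls of MYBA1 (1.49, limma adjusted p = 0.0643) and MYCA1 (-0.24, limma adjusted p = 0.355) were lost, and without replicate 1 that of MYCA1 (-0.26, limma adjusted p = 0.242).

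The thinning difference of day -7 of 2014 minus that of day -9 of 2012, a contrast chosen after seeing the values, was 4.14 for MYBA1 (SE 0.63, limma adjusted p = 7.75e-07). It was 5.29 for MYBA2 (limma adjusted p = 1.05e-08), 4.96 for MYBA3 (limma adjusted p = 1.57e-08) and 0.47 for MYB5b (limma adjusted p = 0.0161), and the other 4 members were not called. In this contrast 1.81% of all genes were called. Without replicate 3 the values of MYBA1 (2.19, limma adjusted p = 0.607), MYBA2 (3.26, limma adjusted p = 0.265) and MYBA3 (3.19, limma adjusted p = 0.246) were not called. MYB5b was not called without replicate 1 (0.37, limma adjusted p = 0.336) or without replicate 2 (0.43, limma adjusted p = 0.144). MYB5b had 40.0, 32.2 and 35.5 RPKM at 75% and 28.3, 29.3 and 33.7 RPKM at 50% on day -7 of 2014. On day -9 of 2012 it had 28.5, 26.0 and 28.2 RPKM at 75% and 32.8, 35.6 and 30.2 RPKM at 50%. Its groups overlapped only on the day of 2014.

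The courses of the members over the 68 cell means group them further, as a description without a test. Cells of a season share sampling days, and Pearson's r was taken on mean log2(RPKM + 1). Of the other 20769 genes, MYBA3 was the one most like MYBA1 (r = 0.992) and MYBA2 ranked 5 (r = 0.97), with shared reads as a possible common part. MYB5a and MYCA1 ran together (r = 0.927), with MYCA1 at rank 1093 of 20769 for MYB5a. MYC1 had r = 0.794 with MYB5a and 0.802 with MYCA1, ranks 4843 and 5254 of 20769, so many genes lay nearer. MYBA1 ran against MYCA1 (r = -0.794) and MYC1 (r = -0.693) and had little relation to WDR1 (r = -0.176). An r above 0.9 was reached by 117 genes for MYBA1, 2744 for MYCA1 and 0 for MYB5b.

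Outside the 8, the ID most like MYBA2 was VIT_02s0033g00380 (r = 0.998), its neighbour in ID order. It had a median of 152.7 RPKM at early ripening and 105.3 RPKM in ripe berries, and was listed at 0 in most green libraries. Whether it shares reads with MYBA2 was not tested. The most like IDs of the others were VIT_05s0094g00330 for MYBA1 (r = 0.979), VIT_14s0081g00030 for MYBA3 (r = 0.968), VIT_11s0052g01700 for MYB5a (r = 0.983), VIT_12s0035g01240 for MYB5b (r = 0.844), VIT_08s0007g05040 for MYC1 (r = 0.939), VIT_19s0014g00300 for MYCA1 (r = 0.992) and VIT_02s0025g01330 for WDR1 (r = 0.964). The sources used here give these IDs no name. Of 15 IDs around the MYBA cluster, only VIT_02s0033g00380 and the 3 MYBA genes passed the filter, and the highest value of the other 11 was 1.08 RPKM.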

How the data were processed

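The authors deposited 1 table of RPKM values, made with TopHat2 2.0.6 and Cufflinks 2.0.2 per the submitters' processing notes; build and settings are not stated in any source used. Reads were not counted by strand, per the labels' protocols, and depth is unknown, so no counting interval was computed. Season, day, thinning and replicate come from sample titles and source names; a year tag differs from the season in 134 samples and was not used. Vines stood in 9 rows, 3 per treatment. Replicates are separate berry samples. In the limma fit with cell means, p-values measure the spread between them, pooled over all cells of season, day and thinning. Single cells can spread more or less than that. The permutation test of the ratios pooled libraries over days and thinning intensities instead. The fit of the season-mean thinning differences has a thinning coefficient per season, so its residual also holds day-to-day changes of the thinning difference. That fit counts 102 libraries per arm, from vines in 3 rows per treatment.

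The fit, in limma 3.58.1 (R 4.3.3), took log2(RPKM + 1) of the 20770 of 29971 genes that reached 1 RPKM in 3 or more libraries, with a mean for each of 68 cells, a variance trend and Benjamini-Hochberg adjustment over all genes. Thinning means used 34 time points as a factor and a coefficient per season. Exact and permutation tests used scipy 1.17.1 in Python 3.11.15. The onset difference and the season-mean thinning difference were tried on simulated data in which a gene had the same SD in all cells. Thinning differences at single days were not simulated. Members, lists, windows and intervals were chosen with earlier results of these data known. All 8 members are named, with the ID most like each and neighbours of the MYBA genes in ID order; a list of pathway IDs was not used, since 0 IDs matched the RefSeq table. Alternatives were median ratio scaling, quantile normalization, a pseudocount of 0.1 RPKM, no filter, each replicate or season left out, a replicate block, and covariates for form and sugar. Deviations of same-numbered replicates had a median r of 0.03 over 102 pairs, from -0.42 to 0.75, with 35 pairs over 0.1. Numbers were not taken to pair libraries, and the exact tests leave any such pairing out.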

Additional observations from a re-analysis of the deposited data

Results flagged for a closer look

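The difference between early ripening and green berries depended on the season in all 8 members by limma's F test, where 75.8% of all genes did. The adjusted p was 0.00107 for MYBA1, 0.00432 for MYBA2, 0.000302 for MYBA3 and 3.71e-12 for MYB5a. It was 7.81e-07 for MYB5b, 4.52e-14 for MYC1, 1.19e-09 for MYCA1 and 1.54e-14 for WDR1. Without replicate 1 it was 0.0579 for MYBA1 and 0.0514 for MYBA2, which were then not called. WDR1 is the member whose season values lie on both sides of 0. The green window covers different days in each season.

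The thinning difference (75% minus 50%, log2) of day -7 of 2014 minus that of day -9 of 2012 was 4.14 for MYBA1, 5.29 for MYBA2, 4.96 for MYBA3 and 0.47 for MYB5b. The difference itself was tested in the limma fit, in a contrast chosen after seeing the data. In the MYBA genes it rests on 2 libraries that were on at 75% in 2014, and on 1 at 75% and 2 at 50% in 2012. The MYBA values were not called without replicate 3, nor that of MYB5b without replicate 1 or 2.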

How the results depend on the processing

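Of 36 results under up to 16 alternative settings, no called value changed sign, 106 counts kept within 1.5 times and 3 moved. The count for day 8 against day 0 of 2014 was 2 without replicate 2, and 2 to 5 over the replicates left out, against 4. The count for thinning on days -7 and 0 of 2014 was 2 to 4 over the replicates left out, against 4. The season differences gave 0 with the form covariate, against 2, in a fit whose form term rests on green libraries of 2013. Leaving out a replicate gave 5 to 6 at the onset and 6 to 8 for its season dependence. The onset difference of WDR1, not called, changed sign with both other scalings (0.17 and 0.19, against -0.07). Among values of single members 256 kept their call and 22 lost it, among them MYCA1 at the 2-fold mark of 2013 and 2014. The replicate block gave 3 for thinning on days -7 and 0 of 2014, with MYCA1 at -0.30 (limma adjusted p = 0.0631), and changed no other of the counts. Its blocks lie within season and thinning intensity. Its season differences and its thinning difference of days -7 and 0 thus refer to a reference replicate of each arm. They are not the same quantities as in the main fit. The best matching library of the other arm had the same number for 41 of 102 libraries. No library had an implausible 0 in a member, so leaving such libraries out was not run. Depth is unknown, so values near 0 RPKM limit the MYBA folds in green berries.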
